A study of Mus musculus with 24 samples.

Results

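Control B cells were compared after 48 h in CD40L + IL-4 with naive control B cells, using the 4 libraries of the 24 in the series whose labels give the control genotype and one of these stages. Each stage holds 2 libraries, named replicate 1 and replicate 2. All 4 came from lymph node B cells of C57BL/6 mice aged 6 to 20 weeks with the genotype Cd23T/+, which carries a BAC transgene expressing Cre from Cd23 (Fcer2) regulatory sequences, so Cre is present in the controls too. The cells were purified by depletion of other cells and sequenced either without culture or after 48 h in medium holding CD40L (50 ng/ml) and IL-4 (10 ng/ml). By the protocol attached to every sample the cells were then sorted as CD3-, B220+ and CD138-, so cells that had already gained the plasma cell marker CD138 are not in these libraries. A further pair of control libraries, from cells held for 48 h in LPS (20 µg/ml) and the same dose of IL-4, is set beside the cultured cells where stated.

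CD40 is the receptor through which a helper T cell licenses a B cell. It recruits TRAF adaptors and activates both the canonical and the alternative NF-kB pathway. IL-4 binds a receptor made of Il4ra with the common gamma chain Il2rg (or with Il13ra1) and signals through JAK kinases to STAT6. Together they are known to drive a resting follicular B cell to enlarge, divide and switch its immunoglobulin from IgM to IgG1 and IgE.

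The counts on genes totalled 11334956 and 9598674 in the CD40L + IL-4 libraries and 15118541 and 14231188 in the naive libraries, and 14194 to 14682 genes had at least 1 count. The stages were sequenced separately and deposited in separate tables, so stage and sequencing run cannot be told apart in any value given here. Levels are CPM, counts scaled to the library size after TMM normalization, and 12306 of 27179 genes passed the minimum of 0.5 CPM in 2 libraries. A CPM is a share of the counts of a library, so the amount of RNA per cell was not measured. Replicates correlated at 0.984 (CD40L + IL-4) and 0.981 (naive) across these genes in log2 CPM, and libraries of different stages at 0.843 to 0.857. A gene was called at a Benjamini-Hochberg adjusted p of edgeR's quasi-likelihood test under 0.15 with a fold over 1.5. Of the genes tested, 49.2% were called, 3203 higher in culture (26.0%) and 2847 lower (23.1%), and the median log2 fold change of all genes was 0.02. These shares are the background for every count below. Without TMM, scaling by library size alone moved that median to 0.17 and the share of called genes that were higher from 52.9% to 62.5%, whereas upper quartile scaling (47.2%) and voom with quantile normalization (46.6%) left most called genes lower. Gene length moved with the stage. Of the genes with the longest transcripts, 30.9% were called higher and 19.0% lower (median log2 fold change 0.14). Of those with the shortest, 23.7% were higher and 26.3% lower (-0.01). With offsets corrected for transcript length, 3050 genes were called higher and 3028 lower. Gene length moved with the replicates too. Among the genes with the longest transcripts, CD40L + IL-4 replicate 1 stood 0.28 above replicate 2 on the log2 scale at the median, and among those with the shortest 0.24 below, while naive replicate 1 stood -0.16 and 0.11 from naive replicate 2. The ribosomal RNA precursor gene Rn45s took 1.86% and 0.592% of the counts after culture and 3.62% and 0.185% in naive cells. A fold above 4 was reached by 1620 called genes, 1024 higher and 596 lower in culture.

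**Figure D1:**
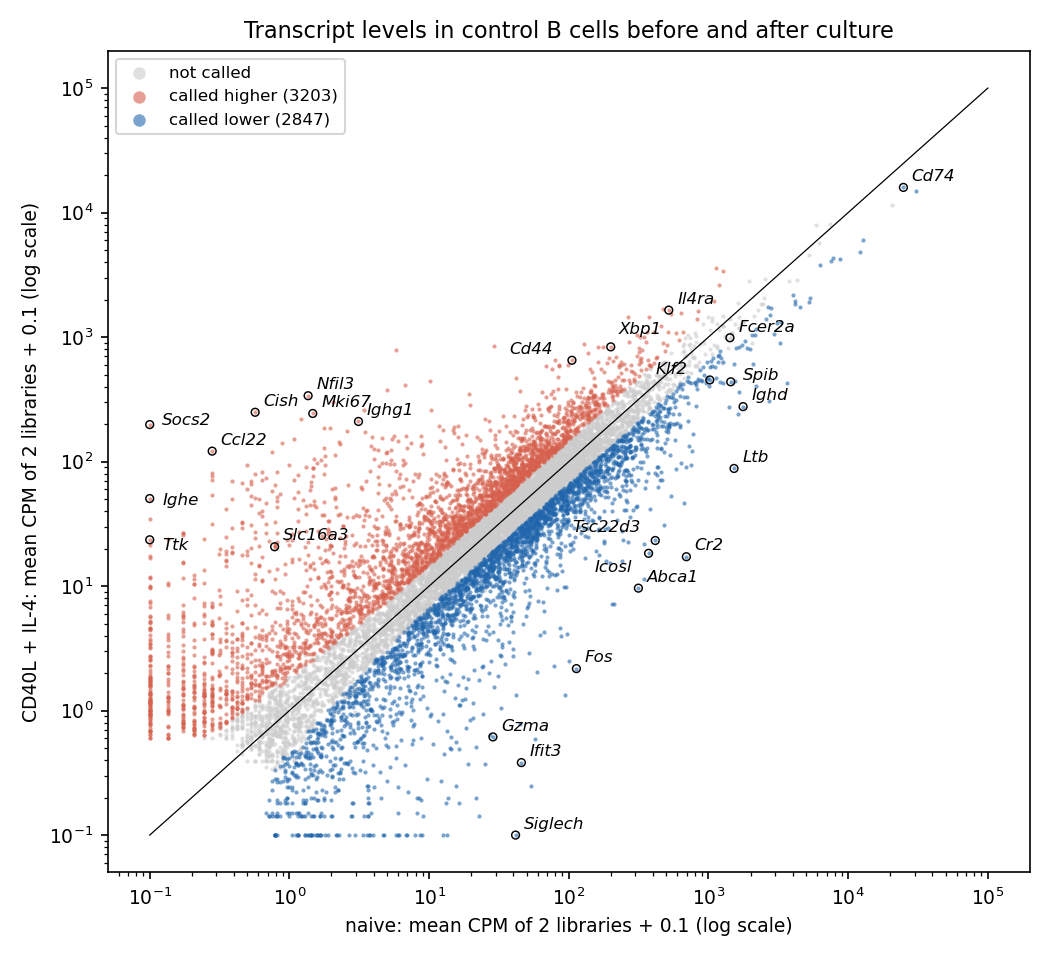
Mean level of each tested gene in the 2 naive control libraries (horizontal axis, CPM + 0.1, log scale) against the 2 control libraries after CD40L + IL-4 (vertical axis, CPM + 0.1, log scale). Each point is a gene, coloured by whether it was called higher (3203), called lower (2847) or neither. Socs2, Ighe and Ttk sit on the left edge, at 0 CPM in naive cells, and Siglech on the lower edge, at 0 CPM after culture.

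The receptors for the culture signals moved apart. Cd40 itself stood at 107 and 154 CPM after culture and 152 and 149 CPM in naive cells (log2 fold change -0.21, SE 0.2099, edgeR adjusted p = 0.448). The cultured libraries lay on either side of the naive pair, and no change was called. Il4ra, the ligand-binding chain of the IL-4 receptor, stood at 1513 and 1780.3 CPM against 455 and 585 CPM (log2 fold change 1.66, SE 0.225, edgeR adjusted p = 0.00021), with both cultured libraries above both naive ones. Its alternative partner Il13ra1 stood at 4.53 and 5.296 CPM against 0.431 and 0.289 CPM (log2 fold change 3.73, SE 0.489, edgeR adjusted p = 0.00017), whereas the common gamma chain Il2rg stood at 169 and 233 CPM against 576 and 584 CPM (log2 fold change -1.53, SE 0.209, edgeR adjusted p = 0.000226). One partner chain of Il4ra thus rose and the other fell. Among the 23 receptors tested for culture signals and B cell survival, 6 rose and 12 fell, with a median log2 fold change of -0.90. The rises included Tnfrsf8 (CD30), a receptor of activated lymphocytes, at 6.67 and 3.597 CPM against 0.0719 and 0.289 CPM (log2 fold change 4.77, SE 0.644, edgeR adjusted p = 0.000208, with 4.12 without naive replicate 1 and 5.94 without naive replicate 2), and Il2ra, the high-affinity IL-2 receptor chain, with a log2 fold change of 2.62. The falls included the IL-2 receptor beta chain Il2rb (-3.68), Cd27 (-3.30) and the BAFF receptor Tnfrsf13c, which carries survival signals to follicular B cells and stood at 269 and 335 CPM against 535 and 593 CPM (log2 fold change -0.90, SE 0.197, edgeR adjusted p = 0.00395).

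Genes of feedback on cytokine signalling were among the largest rises. Socs2, a suppressor of cytokine signalling, had 0 counts in both naive libraries and 202 and 194 CPM after culture. Against the level that 3 counts over the naive group would give, it was at least 1833-fold higher. In the LPS + IL-4 libraries, scaled together with the others in a fit of 6, Socs2 stood at 31.6 and 29.3 CPM. Cish, another member of the family, stood at 214 and 284 CPM after culture and 0.288 and 0.6495 CPM in naive cells (log2 fold change 9.02, SE 0.356, edgeR adjusted p = 1.9e-07). The cultured libraries lay far above naive cells, in which the gene was close to 0, and without naive replicate 2 the value was 9.66. Of the 8 SOCS family genes tested, a list chosen after these values were seen, 4 rose (Socs2, Cish, Socs1 and Socs3) and 2 fell (Socs5, with a log2 fold change of -2.12, and Socs6, with -0.62). The call of Socs6 was lost when either cultured library or naive replicate 2 was left out. The kinases and transcription factors in the same pathway moved less. Jak2 (1.15) and Stat5a (0.67) rose, and Stat6 (-0.87) was among the 2 of 11 tested that fell. Stat5a lost its call without naive replicate 1.

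Among genes known to respond to IL-4 and STAT6, 10 of 15 tested rose and 2 fell, with a median log2 fold change of 1.66. With either cultured library left out, 13 of the 15 reached the minimum level. Their median was 1.69 without CD40L + IL-4 replicate 1 and 1.46 without CD40L + IL-4 replicate 2. The rest passed the minimum only through the cultured libraries, so their direction was set by that filter. Nfil3, a bZIP factor needed for switching to IgE, stood at 321 and 355 CPM after culture and 1.01 and 1.52 CPM in naive cells (log2 fold change 8.06, SE 0.2802, edgeR adjusted p = 1.9e-07), and at 232 and 201 CPM after LPS + IL-4. The cultured libraries were well clear of the naive pair. Vdr, the vitamin D receptor, had a log2 fold change of 7.36, Socs1 of 3.87 and Batf, an AP-1 factor of activated lymphocytes, of 2.37. Fcer2a, which encodes CD23 and is itself an IL-4 target, stood at 959.7 and 1015 CPM against 1353 and 1497 CPM (log2 fold change -0.53, SE 0.204, edgeR adjusted p = 0.0564), and the fold fell short of the threshold although the cultured libraries lay below the naive ones. It was called lower with upper quartile normalization and without naive replicate 1. The Cd23-Cre transgene uses the regulatory sequences of this gene, and its part in the count was not tested.

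Targets of NF-kB and CD40 split. Of 22 tested, 9 rose and 4 fell, and the median log2 fold change of 0.04 took either sign across 16 refits (-0.10 to 0.27). Ccl22, a chemokine that attracts CCR4-bearing T cells, stood at 68.9 and 174 CPM against 0.216 and 0.144 CPM (log2 fold change 9.32, SE 0.606, edgeR adjusted p = 1.33e-06), with replicate 2 the higher of the cultured pair and both far above naive cells. After LPS + IL-4 it stood at 435 and 533 CPM, higher than after CD40L + IL-4 (log2 difference -1.97, SE 0.319, edgeR adjusted p = 0.000474, for CD40L + IL-4 minus LPS + IL-4). Ccl17, which binds the same receptor, had 104 counts over the cultured libraries and 3 over the naive ones (ratio of summed CPM 43.5, exact 95% counting interval 14.5 to 214). The others that rose were Bcl2l1, Traf1, Cd83, Fas, Nfkb1, Tnfaip3 and Irf4, of which the transcription factor Irf4 stood at 375 and 425 CPM against 194 and 218 CPM (log2 fold change 0.96, SE 0.185, edgeR adjusted p = 0.002). The inhibitors Nfkbia (-1.69) and Nfkbie (-0.63) fell together with the subunits Relb (-1.37) and Nfkb2 (-0.82).

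**Figure D2:**
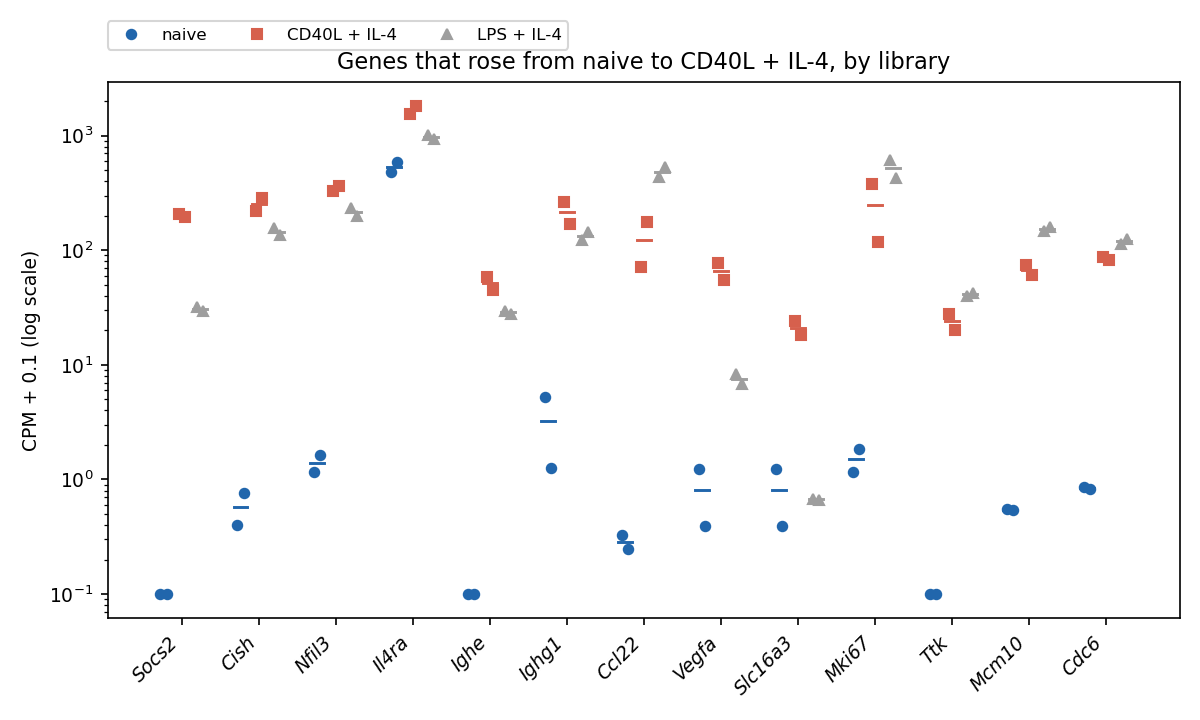
Level of 13 genes that rose (horizontal axis) in each control library (vertical axis, CPM + 0.1 in the fit of 6 libraries, log scale) for naive, CD40L + IL-4 and LPS + IL-4 cells. Points are libraries and bars are the means of 2. For Socs2, Ighe and Ttk both naive points sit at 0 CPM, and for Slc16a3 the LPS + IL-4 points sit beside the naive ones.

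The immunoglobulin heavy chain genes showed which isotypes were transcribed. Ighe, the constant region of IgE, had 0 counts in both naive libraries and 56.2 and 44.6 CPM after culture, at least 466-fold higher. Ighg1, that of IgG1, stood at 254 and 166 CPM against 4.89 and 1.15 CPM (log2 fold change 6.11, SE 0.493, edgeR adjusted p = 5.87e-06). Naive replicate 1 was the higher of the naive pair, and the value was 7.499 without it and 5.38 without naive replicate 2. Counts per gene do not separate transcripts of switched heavy chains from the germline transcripts that precede switching. Ighm differed by 0.13 on the log2 scale and was not called, while Ighd, the IgD constant region, fell from 1738 and 1800.3 CPM to 243 and 310.0 CPM (log2 fold change -2.68, SE 0.225, edgeR adjusted p = 7.84e-06). Of the 12 constant regions tested, 2 rose and 7 fell, the latter including Ighg2b (-2.87, between -1.89 without naive replicate 2 and -3.46 without naive replicate 1), Igha (-2.31) and the light chains Igkc (-1.47), Iglc2 and Iglc3. When either cultured library was left out, Ighe did not reach the minimum in 2 libraries and 1 constant region rose. Reads shared between near-identical constant regions were not counted, so the Ighg and Iglc genes are uncertain.

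Of the 28 genes of the switch machinery tested, 14 rose and 0 fell, with a median of 0.63. The rises covered base excision and mismatch repair, with Exo1 at 5.14 (5.76 without naive replicate 1), Ung at 2.39, Apex1 at 1.98 and Msh6 at 1.78. They also covered responses to DNA breaks, with Rnf168 at 2.28, Rif1 at 1.74 and the kinase subunit Prkdc at 1.31. The end-joining factors Lig4 (-0.47), Xrcc4 (-0.40) and Nhej1 (-0.36) were not called. Exo1 and several of the others also serve DNA replication, whose genes rose in the same libraries.

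Genes of cell division rose together. Mki67, a marker of cycling cells, stood at 369 and 117 CPM after culture and 1.01 and 1.73 CPM in naive cells (log2 fold change 7.46, SE 0.586, edgeR adjusted p = 4.84e-06). Replicate 1 was the higher of the cultured pair, among which 15.2% of genes differed by over 1.5-fold, and the log2 fold change was 6.44 without it and 8.10 without replicate 2. Of 32 mitosis and spindle genes listed, 32 were tested and 32 rose, with log2 fold changes between 1.81 (Cenpa) and 8.66 (Kif15) apart from Ttk, which had no naive count, and a median of 6.24. All 32 rose in each refit that left no library out. Without either cultured library, 28 of the 32 reached the minimum level. Their median was 5.97 without CD40L + IL-4 replicate 1 and 6.22 without CD40L + IL-4 replicate 2. The rest passed the minimum only through the cultured libraries, so their direction was set by that filter. Ttk, the spindle checkpoint kinase MPS1, stood at 27.02 and 19.9 CPM after culture and was at least 217-fold higher. Kif15, a kinesin of the bipolar spindle, stood at 92.7 and 61.1 CPM against 0.216 and 0.144 CPM (log2 fold change 8.66, SE 0.401, edgeR adjusted p = 1.9e-07), and the chromokinesin Kif4, outside the list, at 97.5 and 63.8 CPM against 0 and 0.361 CPM. Of 34 genes of DNA replication and nucleotide synthesis tested, 31 rose, with a median of 2.72, led by Mcm10 (7.22) and the origin licensing factor Cdc6 (6.82). Pold1 (0.29), Cdt1 (0.38) and Gins4 (0.50) were not called.

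The promoters of these genes are shown because the genes moved together. Late cell cycle genes are known to be controlled through the CHR, a short element read by the DREAM and MuvB complexes, and replication genes through E2F sites. RefSeq promoters (GRCm38.p6, 250 bases before to 50 after the start) were searched on both strands for the CHR letters TTTGAA, which were found in 20 of 27 promoters of the mitosis list (74.1%, with a promoter for 27 of 32 genes) and in 17.9% of all 32851 promoters (12.3% of those of the tested genes). Within 50 bases of the start they were found in 18 of the 27 (66.7%), against 4.94% of all promoters. The E2F letters TTTCCCGC or TTTGGCGC were found in 10 of 33 promoters of the replication list (30.3%, with a promoter for 28 of 34 genes) against 1.56% of all and 3.04% of those of the tested genes. Within 50 bases of the start they were in 6 of the 33, against 0.530% of all. Pold1 and Cdt1, not called, hold them too. Each sequence runs 5′ to 3′ on the strand of the gene from 70 bases before the start to 30 after, in lower case, with the letters it is shown for, or their complement on the other strand, in capitals. The window of Kif15 holds the E2F letters as well, left in lower case. Ttk lies at chr9:83834619-83834718 and Kif15 at chr9:122951011-122951110, both on the plus strand. Kif11 is at chr19:37376312-37376411 (plus), Cdc20 at chr4:118437314-118437413 (minus) and Ube2c at chr2:164769859-164769958 (plus). For E2F, Mcm3 is at chr1:20820283-20820382, Mcm6 at chr1:128359676-128359775 and Rfc3 at chr5:151651179-151651278, all on the minus strand.
Ttk: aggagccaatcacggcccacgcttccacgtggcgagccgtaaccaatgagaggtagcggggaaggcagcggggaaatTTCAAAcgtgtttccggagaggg
Kif15: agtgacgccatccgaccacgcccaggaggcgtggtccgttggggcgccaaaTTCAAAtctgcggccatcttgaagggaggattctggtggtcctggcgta
Kif11: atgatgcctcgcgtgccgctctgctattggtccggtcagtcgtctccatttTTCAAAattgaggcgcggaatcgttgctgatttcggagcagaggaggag
Cdc20: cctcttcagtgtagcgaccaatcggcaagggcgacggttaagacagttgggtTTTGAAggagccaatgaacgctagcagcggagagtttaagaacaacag
Ube2c: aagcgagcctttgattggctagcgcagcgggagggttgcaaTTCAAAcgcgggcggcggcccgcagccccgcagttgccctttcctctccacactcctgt
Mcm3: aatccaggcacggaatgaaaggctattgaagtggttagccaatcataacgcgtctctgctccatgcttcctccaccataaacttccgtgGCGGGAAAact
Mcm6: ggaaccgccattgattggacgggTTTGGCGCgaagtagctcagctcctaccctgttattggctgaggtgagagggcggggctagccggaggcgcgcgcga
Rfc3: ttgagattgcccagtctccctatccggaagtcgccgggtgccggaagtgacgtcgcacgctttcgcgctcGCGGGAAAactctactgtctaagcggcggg

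The genes carrying the printed CHR letters span a wide range of change. Kif11 stood at 258 and 178 CPM against 1.44 and 0.794 CPM (log2 fold change 7.60), Ube2c at 192 and 181 CPM against 2.23 and 1.08 CPM (6.81) and Cdc20, the activator of the anaphase-promoting complex, at 155 and 147 CPM against 5.32 and 5.27 CPM (4.83). Of the genes shown for the E2F letters, Mcm3 had a log2 fold change of 3.05, Mcm6 of 2.88 and the clamp loader subunit Rfc3 of 1.09. A match of letters is a description of the sequence, and no binding was measured. Other motifs were counted in the lists they belong to by name. The NF-kB letters (GGG, any 2 bases, TTTCC) were in 9 of 24 promoters of the NF-kB and CD40 list (37.5%) against 1.63% of all and 1.77% of those of the tested genes, in genes that rose (Bcl2l1, Tnfaip3), fell (Nfkbia, and Nfkb2 with 3 promoters) or were not called (Traf2, Traf3, Rel). The STAT6 letters (TTC, any 4 bases, GAA) were in 3 of 15 promoters of the IL-4 list, against 6.95% of all and 5.43% of those of the tested genes, namely Ccl17, Vdr and Fcer2a. Within 50 bases of the start the NF-kB letters were in 6 of the 24 (0.521% of all promoters) and the STAT6 letters in 0 of the 15 (2.15% of all).

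Regulators of entry into the cycle moved both ways. Of 25 G1 cyclins, kinases, E2F factors and inhibitors tested, 16 rose and 3 fell, with a median of 1.20. With either cultured library left out, 21 of the 25 reached the minimum level. Their median was 0.94 without CD40L + IL-4 replicate 1 and 0.96 without CD40L + IL-4 replicate 2. The rest passed the minimum only through the cultured libraries, so their direction was set by that filter. The D-type cyclins changed in different directions, Ccnd2 with 1.91 and Ccnd3 with 1.20 against Ccnd1 with -3.73 (-2.69 without naive replicate 1 and -4.38 without naive replicate 2). The repressor E2f8 stood at 86.1 and 61.7 CPM against 0.575 and 0.577 CPM (log2 fold change 6.98, SE 0.3199, edgeR adjusted p = 1.9e-07). Inhibitors of cyclin-dependent kinases rose as well, Cdkn2a with 3.68, Cdkn1a with 3.48 and Cdkn2b with 2.70, whereas Cdkn1b, which encodes p27 and holds cells at rest, fell by 1.44. Myc stood at 92.9 and 80.8 CPM after culture and 68.03 and 55.9 CPM in naive cells (log2 fold change 0.49, SE 0.194, edgeR adjusted p = 0.063), below the fold threshold, and at 203 and 237 CPM after LPS + IL-4 (log2 difference -1.31, SE 0.187, edgeR adjusted p = 0.000206 for CD40L + IL-4 minus LPS + IL-4). It was called higher when scaled by library size alone and without CD40L + IL-4 replicate 2 or naive replicate 1. Its relative Mycl fell (-3.10, between -2.19 without naive replicate 1 and -4.96 without CD40L + IL-4 replicate 1) and Mxd3, a MAX partner found in dividing cells, rose (6.19). Among enzymes that place DNA and H3K27 methylation, 7 of 14 rose, with the replication-coupled Uhrf1 at 5.48 and Dnmt1 at 2.52. Ezh2, the catalytic subunit of PRC2, stood at 182 and 179 CPM against 11.4 and 13.4 CPM (log2 fold change 3.86, SE 0.2096, edgeR adjusted p = 4.16e-07), while its homologue Ezh1 fell.

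Genes of biosynthesis rose in several groups. Sterol and fatty acid synthesis had 21 of 31 members higher and 4 lower, with a median of 1.37. Mvd of the mevalonate pathway stood at 74.4 and 71.2 CPM against 9.56 and 10.9 CPM (log2 fold change 2.83, SE 0.203, edgeR adjusted p = 2.63e-06), and Sqle, the squalene epoxidase, had a log2 fold change of 2.70. The 4 that fell do not synthesize sterol by the mevalonate route. Abca1 and Abcg1 export cholesterol, Mylip is a ubiquitin ligase of sterol uptake, and Scd1 desaturates fatty acids. Abca1 stood at 11.9 and 7.19 CPM after culture and 294 and 336 CPM in naive cells (log2 fold change -5.04, SE 0.272, edgeR adjusted p = 4.07e-07).

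Amino acid synthesis and uptake had 15 of 24 genes higher and 2 lower, with a median of 1.18. Asparagine synthetase, Asns, stood at 7.25 and 5.496 CPM against 0.719 and 0.361 CPM (log2 fold change 3.54, SE 0.469, edgeR adjusted p = 0.000184). The glutathione-degrading enzyme Chac1 had 58 counts after culture and 2 in naive cells (ratio of summed CPM 36.3, exact 95% counting interval 9.62 to 307). Slc3a2 (-0.70) and Ddit3 (-0.69) fell, but Ddit3 lost its call when CD40L + IL-4 replicate 1, CD40L + IL-4 replicate 2 or naive replicate 2 was left out. In glycolysis and its transporters 15 of 20 rose and 1 fell. The lactate exporter Slc16a3 (MCT4) stood at 23.2 and 17.99 CPM after CD40L + IL-4, 1.08 and 0.289 CPM in naive cells (log2 fold change 4.89, SE 0.455, edgeR adjusted p = 1.54e-05) and 0.571 and 0.569 CPM after LPS + IL-4. Its log2 fold change was 6.11 without naive replicate 1 and 4.20 without naive replicate 2. The glucose transporter Slc2a3 fell by 1.46 and Slc2a1 was not called (-0.04). Gapdh also passed the test, but it was counted at 5.601 and 4.397 CPM. Reads that it shares with its many near-identical copies do not map uniquely and were not counted, so its value is uncertain.

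Genes for making and folding protein followed with smaller changes. In ribosome biogenesis 20 of 30 rose and none fell, with a median of 0.90. Nucleolin, Ncl, stood at 1553 and 1368 CPM against 202 and 330.0 CPM (log2 fold change 2.46, SE 0.264, edgeR adjusted p = 4.49e-05). Transfer RNA synthetases had 12 of 20 higher (median 0.76), with Eprs at 2.28 and Aars at 1.49. The constitutive proteasome had 12 of 25 higher (median 0.53), a count that ranged from 7 (without naive replicate 2) to 14 over 16 refits. Among endoplasmic reticulum chaperones and unfolded protein response genes 17 of 24 rose, and Dnajb9 fell (-1.41), while 3 fell without naive replicate 2. Xbp1, the factor that expands the secretory pathway, stood at 758 and 911 CPM against 195 and 204 CPM (log2 fold change 2.06, SE 0.201, edgeR adjusted p = 2.11e-05). By contrast 1 of 32 cytosolic ribosomal protein genes rose and 8 fell, and the falls numbered 5 without CD40L + IL-4 replicate 1, 14 without CD40L + IL-4 replicate 2 and 12 without naive replicate 2. These genes have near-identical pseudogenes and are uncertain. Of 30 nuclear genes for oxidative phosphorylation, 2 rose (Cox5a and Cox5b), a count of 1 to 9 over refits, and Cox5b lost its call without naive replicate 2. Of the 13 mitochondrially encoded mRNAs 13 fell, with a median of -1.23, a list chosen after the values were seen. Under voom with quantile normalization 10 fell (median -0.85), and 12 fell with DESeq2 and when scaled by library size alone. Some of the 13 lost their call without CD40L + IL-4 replicate 1 or naive replicate 1. The median of the 13 was -0.87 without CD40L + IL-4 replicate 1 and -1.80 without CD40L + IL-4 replicate 2. Of these COX1, a subunit of cytochrome oxidase and among the genes with most counts, stood at 10383 and 19276 CPM against 33740 and 26974 CPM (log2 fold change -1.03, SE 0.346, edgeR adjusted p = 0.0319), with the call lost without naive replicate 1 and under voom with quantile normalization.

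**Figure D3:**
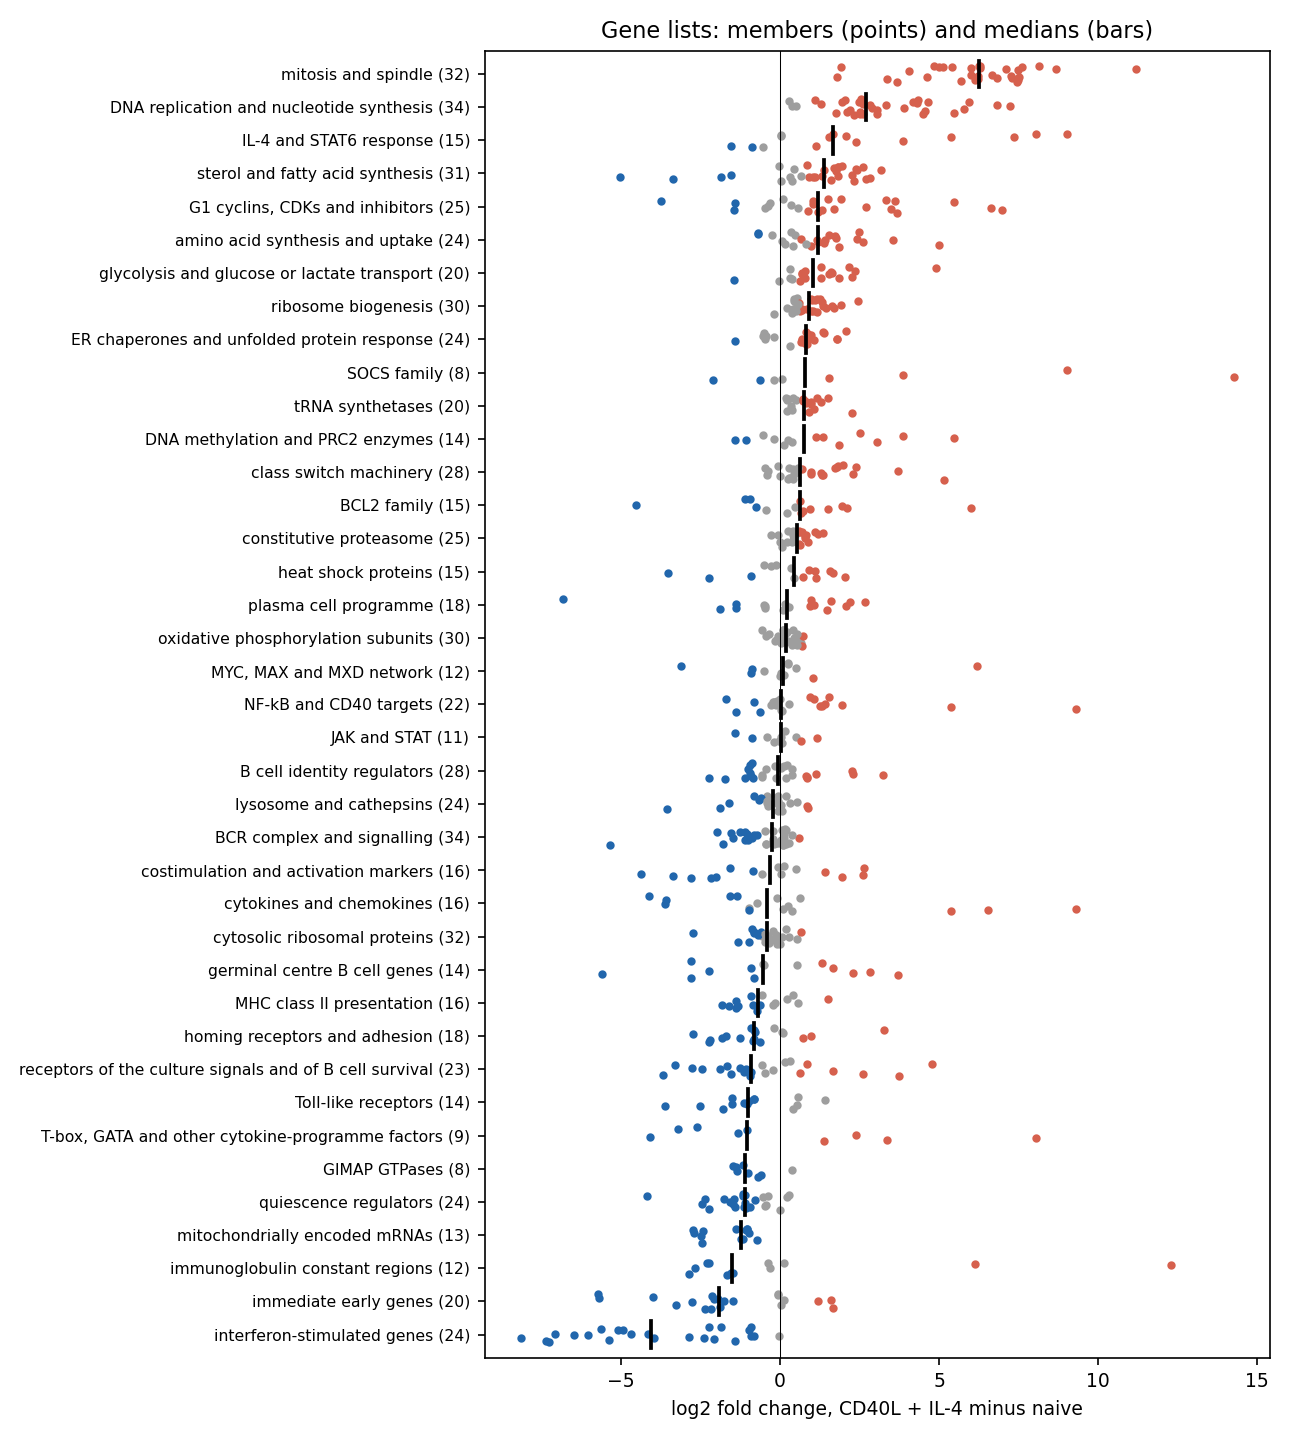
Log2 fold change of CD40L + IL-4 over naive (horizontal axis) for the tested members of each gene list (rows), with each point a gene (red called higher, blue called lower, grey not called) and each vertical bar the list's median. The fitted values of genes with no count at a stage, such as Socs2, Ighe and Ttk, are not bounds. Mitosis (median 6.24) and DNA replication (2.72) lie farthest to the right and interferon-stimulated genes (-4.06) farthest to the left among the lists that are not cell type markers.

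Genes that keep lymphocytes at rest were lower after culture. Of 24 quiescence regulators tested, 17 fell and 0 rose, with a median of -1.11. Klf2, which restrains division and maintains homing receptors, stood at 397 and 508 CPM after culture and 1057 and 987 CPM in naive cells (log2 fold change -1.18, SE 0.2095, edgeR adjusted p = 0.00123), and lower still after LPS + IL-4 at 119 and 66.9 CPM. Tsc22d3 (GILZ), a glucocorticoid-induced regulator, stood at 18.7 and 27.6 CPM against 348 and 484 CPM (log2 fold change -4.17, SE 0.268, edgeR adjusted p = 1.19e-06). The FOXO target Il7r (-2.46, between -1.73 without CD40L + IL-4 replicate 1 and -3.58 without CD40L + IL-4 replicate 2), Txnip (-2.22), Btg1 (-1.77) and Foxo1 (-1.09) fell too. The GIMAP family of lymphocyte survival GTPases had 7 of 8 members lower, Gimap4 (0.39) being the exception.

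Immediate early genes, which are induced within minutes of a signal, mostly fell. Of 20 tested, 13 fell and 3 rose, with a median of -1.92. Fos stood at 3.05 and 1.099 CPM after culture and 187 and 39.8 CPM in naive cells (log2 fold change -5.73, SE 0.718, edgeR adjusted p = 0.000127). The naive replicates were far apart, replicate 1 being the higher, yet both lay above the cultured pair. The value was -4.21 without naive replicate 1 and -6.64 without CD40L + IL-4 replicate 1. Fosb had a log2 fold change of -5.69 and Nr4a1, a reporter of antigen receptor signalling, of -3.99. Egr2 (1.68), Fosl2 (1.20) and Rgs1 (1.61) rose. The 3 rises became 1 without CD40L + IL-4 replicate 1. Rgs1 lost its call without either cultured library and stood at 3.57 without naive replicate 1. The stress-induced chaperones Hspa1b (-3.51, between -2.30 without naive replicate 1 and -5.68 without CD40L + IL-4 replicate 1) and Hspa1a (-2.24) fell in the same libraries, the latter not without naive replicate 1 or CD40L + IL-4 replicate 2 and not by DESeq2, whereas Hsp90ab1 rose (1.66).

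Of 18 homing and adhesion genes, which place B cells in tissue, 12 fell and 3 rose. The integrin chain Itgb7 (-2.72), Cxcr4 (-2.23), the egress receptor S1pr1 (-1.83), Ccr7 (-1.71) and the follicle receptor Cxcr5 (-0.90) were among the falls, while S1pr3 rose (3.26). Cd9 also rose (0.98), but not without CD40L + IL-4 replicate 2 or naive replicate 2. Cr2, the complement receptor CD21, stood at 14.7 and 19.5 CPM after culture and 610.5 and 779 CPM in naive cells (log2 fold change -5.35, SE 0.255, edgeR adjusted p = 2.2e-07), and at 24 and 33.7 CPM after LPS + IL-4. Of 34 genes of the B cell receptor and its signalling, 13 fell, among them Cd72, Syk, Blk, Cd79a (-1.47), Cd79b (-0.88) and Lyn, and most were not called (median -0.24). Vav2 rose (0.61) by little more than the threshold and lost its call in 7 of the 16 refits. Of 14 Toll-like receptors and partners 10 fell, including Tlr9 (-1.51) and Tlr4 (-1.505).

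**Figure D4:**
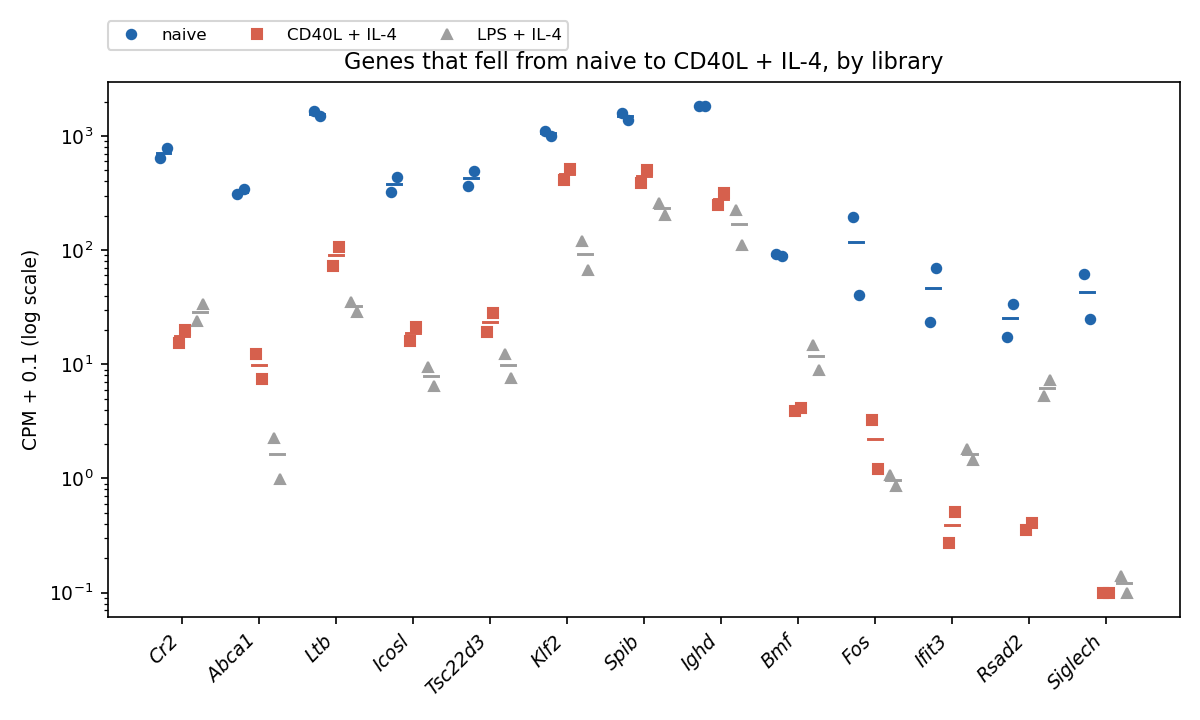
Level of 13 genes that fell (horizontal axis) in each control library (vertical axis, CPM + 0.1 in the fit of 6 libraries, log scale) for naive, CD40L + IL-4 and LPS + IL-4 cells. Points are libraries and bars are the means of 2. The naive points of each gene lie above its CD40L + IL-4 points, and for Siglech both CD40L + IL-4 points sit at 0 CPM.

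Antigen presentation and costimulation did not rise as groups. Of 16 genes of MHC class II presentation 9 fell and 1 rose, with a median of -0.68. Scaled by library size alone, 7 fell and 2 rose (median -0.52), and the same counts held under voom with quantile normalization (median -0.40). H2-Aa, a class II alpha chain, stood at 4048 and 5605 CPM against 12830 and 11531 CPM (log2 fold change -1.34, SE 0.276, edgeR adjusted p = 0.0029). The invariant chain Cd74 stood at 13563 and 18298 CPM against 22725 and 26987 CPM (log2 fold change -0.64, SE 0.292, edgeR adjusted p = 0.0978), but the call was lost in 6 of 16 refits, among them those without CD40L + IL-4 replicate 1, naive replicate 1 or naive replicate 2, and the sign turned under voom with quantile normalization (0.31). With the replicate number as a block its adjusted p was 0.265. Ifi30, the lysosomal thiol reductase, rose (1.496). Of 16 costimulation and activation genes 4 rose, namely Cd44 (2.63), Il2ra, Havcr1 and Cd83, and 7 fell. Icosl, the ligand of ICOS on T cells, stood at 15.5 and 20.98 CPM after culture and 311 and 434 CPM in naive cells (log2 fold change -4.36, SE 0.257, edgeR adjusted p = 6.87e-07). Cd86 (0.03) and Cd80 (0.49) were not called. Ltb, a lymphotoxin chain needed for lymphoid tissue structure, stood at 69.9 and 106 CPM against 1583 and 1465 CPM (log2 fold change -4.12, SE 0.265, edgeR adjusted p = 1.22e-06). Vegfa, a growth factor for endothelium, rose from 1.08 and 0.289 CPM to 74.6 and 54.5 CPM (log2 fold change 6.54, SE 0.404, edgeR adjusted p = 9.43e-07, 7.76 without naive replicate 1 and 5.85 without naive replicate 2).

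Transcription factors of B cell identity had no common direction. Of 28 tested, 7 rose and 9 fell, counts not far from the 26.0% and 23.1% of all tested genes. The median of -0.07 took either sign over the refits (-0.16 to 0.08). Spib stood at 374 and 501 CPM after culture and 1512 and 1375 CPM in naive cells (log2 fold change -1.72, SE 0.224, edgeR adjusted p = 0.000163), and its ETS relative Spi1, which encodes PU.1, at 79.6 and 103 CPM against 159 and 176 CPM (log2 fold change -0.88, SE 0.198, edgeR adjusted p = 0.00461). Both factors whose loss the series studies were thus lower after culture in control cells. After LPS + IL-4, Spib stood at 261 and 202 CPM. Bcl6, the repressor that sustains germinal centre B cells, had a log2 fold change of -2.22, Ets1 of -0.99, Bach2 of -0.94 and Ebf1 of -0.84, whereas Pax5 (-0.44) and Ikzf3 (-0.58) were not called. Bhlhe41 (3.24), Mef2b (2.31), Myb (2.27) and Tcf4 (1.13) rose.

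Genes of the plasma cell programme moved without a common direction. Of 18 tested, 8 rose and 4 fell. Prdm1, which encodes the plasma cell regulator Blimp-1, stood at 7.82 and 8.69 CPM against 1.01 and 1.59 CPM (log2 fold change 2.66, SE 0.379, edgeR adjusted p = 0.000292), and Slamf7 had a log2 fold change of 2.21. Sdc1, which encodes the CD138 used as the gate, fell by 1.88, and Igj fell by 1.37, the latter without a call when CD40L + IL-4 replicate 1 or naive replicate 1 was left out. Among germinal centre genes 5 of 14 rose and 6 fell, with a median of -0.53. Without naive replicate 1, 6 of 12 tested rose and 3 fell, and the median was 0.17. Rgs13 had 3 counts after culture and 194 in naive cells (ratio of summed CPM 51.6, exact 95% counting interval 17.4 to 252), while Basp1 rose (2.83).

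The BCL2 family included large changes at the BH3-only genes, whose products promote apoptosis. Of 15 tested, 8 rose and 4 fell. Bmf stood at 3.71 and 3.997 CPM after culture and 88.6 and 87.3 CPM in naive cells (log2 fold change -4.51, SE 0.223, edgeR adjusted p = 2.53e-07). Bik had no naive count and stood at 0.741 and 0.4996 CPM after culture, at least 5.74-fold higher, and Bbc3 (PUMA) rose (2.12). The anti-apoptotic Bcl2l1 rose (1.96), as did Bcl2a1d (1.49), whereas Bcl2 (-0.76) and Mcl1 (-1.09) fell. The Bcl2a1 genes are near-identical copies and uncertain.

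Interferon-stimulated genes, which cells switch on in response to type I interferon, fell together. Of 24 tested, 23 fell, with a median log2 fold change of -4.06 (-3.73 with the 2 genes that had no count after culture set at their bound), and only Stat2 (-0.03) was not called. Ifit3 stood at 0.165 and 0.3997 CPM after culture and 22.1 and 69.3 CPM in naive cells (log2 fold change -7.34, SE 0.697, edgeR adjusted p = 1.79e-05). Naive replicate 2 was the higher of the naive pair, and both lay above the cultured libraries (-8.00 without CD40L + IL-4 replicate 2). The antiviral genes Rsad2 (-6.47) and Rtp4 (-6.03) fell too. Between 16 and 23 members fell in each of 16 refits. When a naive library was left out, 18 members reached the minimum level, with a median of -2.45 without replicate 1 and -2.25 without replicate 2. The rest passed the minimum only through the naive libraries, so their direction was set by that filter. The other large falls included Pydc4 at 0.0824 and 0 CPM against 21.9 and 23.6 CPM (ratio of summed CPM 503, exact 95% counting interval 90.03 to 19916) and Gm14446 at 0 and 0.2998 CPM against 42.6 and 64.1 CPM (ratio of summed CPM 394, exact 95% counting interval 135 to 1912).

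Markers of other cell types fell beside them. The 9 NK cell markers tested summed to 7.25 and 9.09 CPM after culture and 149 and 69.5 CPM in naive cells, and all 9 fell, among them Gzma, a granule protease and one of the 10 largest falls, at 0.329 and 0.699 CPM against 42.5 and 14.6 CPM (log2 fold change -5.81, SE 0.616, edgeR adjusted p = 4e-05). Naive replicate 1 held more of them than naive replicate 2. With either naive library left out, 5 markers reached the minimum level. Their median log2 fold change was -2.80 without naive replicate 1 and -3.58 without naive replicate 2, and Gzma stood at -4.83 without naive replicate 1. The rest passed the minimum only through the naive libraries, so their direction was set by that filter. Of the 12 plasmacytoid dendritic cell markers 9 fell and 2 rose, their sum being 1631 and 1873 CPM against 4317 and 3875 CPM. Spib, Ly6d, Bst2, Irf8 and Tcf4 of this list are also B cell genes, and plasmacytoid dendritic cells carry the B220 of the gate. Siglech, a defining surface marker of these cells, had 0 counts after culture and stood at 58.8 and 24.2 CPM in naive cells, at least 306-fold lower after culture, and Klk1 was at 0 after culture as well. The 9 T cell markers tested summed to 56.6 and 61.7 CPM against 75.3 and 30.5 CPM. Of these sums Thy1 held 46.5 and 54.5 CPM after culture and 6.54 and 3.75 CPM in naive cells. Thy1 was higher (3.29) and 6 of the markers were lower. The lower ones numbered 3 without CD40L + IL-4 replicate 2, and 3 of 6 tested when either naive library was left out. Cd3e, part of the CD3 complex gated against, had 3 and 0 counts after culture and 3 and 4 in naive cells. Other CD3 genes were low but higher in naive cells. Cd3d had 4 and 0 counts after culture against 13 and 8, and Cd3g 1 and 0 against 16 and 2. The T cell marker Cd247 had 4 and 1 against 12 and 14. Cd4 had 2 counts after culture and 367 in naive cells (ratio of summed CPM 146, exact 95% counting interval 40.2 to 1213). Cd7, found on T, NK and plasmacytoid dendritic cells, had 2 against 598 (ratio of summed CPM 239, exact 95% counting interval 65.8 to 1974). The 7 conventional dendritic cell markers summed to 14.7 and 18.99 CPM against 70.8 and 38.9 CPM. The 4 erythroid ones summed to 0.906 and 0.699 CPM against 12.1 and 12.1 CPM. With either naive library left out, 4 of these dendritic cell markers and 2 of these erythroid ones reached the minimum level. The dendritic cell median log2 fold change was then -0.60 (without replicate 1) or -1.07 (without replicate 2), against -4.80 with both. The erythroid median was -2.88 or -2.96, against -5.49. The T cell, conventional dendritic cell and erythroid markers that dropped out had passed the minimum only through the naive libraries. Their direction was thus set by that filter, and the same was true of Siglech and Klk1. In bulk RNA, fewer cells of a type and less RNA per cell cannot be told apart, and the part of these cells in the falls of other genes was not tested. The 12 B cell markers summed to 13705 and 16689 CPM against 22496 and 22697 CPM, so they made up the bulk of marker counts at both stages, with 9 lower after culture and Cd22 (0.09) and Ighm among the 3 not called. No neutrophil marker passed the minimum level.

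**Figure D5:**
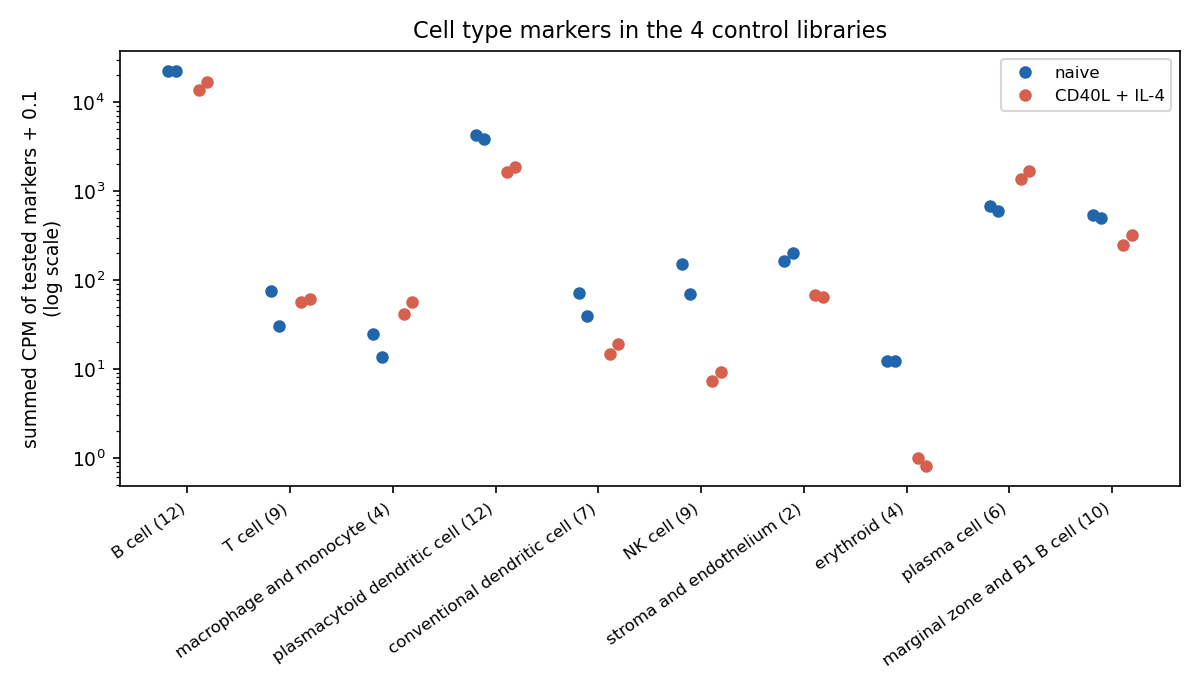
Summed level of the tested markers (vertical axis, CPM + 0.1, log scale) of each cell type (horizontal axis, number of markers in parentheses) in each naive and CD40L + IL-4 control library, shown as points. B cell markers sum to between 13705 and 22697 CPM, while NK cell markers sum to 149 and 69.5 CPM in naive cells against 7.25 and 9.09 CPM after culture.

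Among the remaining genes with the largest rises, Insm1, a zinc finger factor known from neuroendocrine cells, had no naive count and stood at 39.5 and 29.7 CPM after culture, at least 320-fold higher. P2rx3, an ATP-gated channel known from sensory neurons, was likewise at 0 in naive cells and stood at 22.9 and 19.7 CPM after CD40L + IL-4, at least 197-fold higher, but at 0.735 and 0.362 CPM after LPS + IL-4 (log2 difference 5.41, SE 0.381, edgeR adjusted p = 4.11e-06). Both LPS + IL-4 libraries lay below both CD40L + IL-4 libraries. Apol7c stood at 10.5 and 37.1 CPM against 0 and 0.0722 CPM (ratio of summed CPM 625, exact 95% counting interval 112 to 24752), with replicate 2 well above replicate 1. Ly6c2, a surface antigen of several leukocytes, fell by 6.81 on the log2 scale.

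The LPS + IL-4 libraries share IL-4 and the culture time with the CD40L + IL-4 libraries and differ in the other stimulus, and they were deposited in the table that holds the naive libraries, so the stimulus and the table cannot be told apart here either. Both comparisons use the same 2 CD40L + IL-4 libraries. In the fit of the 6 control libraries, 41.8% of 12649 genes were called between the cultures, 21.7% higher after CD40L + IL-4 and 20.1% higher after LPS + IL-4. Of the mitosis genes, 2 of 32 were higher after CD40L + IL-4 and 7 after LPS + IL-4, with a median difference of -0.26 on the log2 scale. Ribosome biogenesis genes were lower after CD40L + IL-4 in 28 of 30 cases (median -1.73), and so were 16 of 20 tRNA synthetases and 15 of 25 proteasome genes. Interferon-stimulated genes were lower after CD40L + IL-4 in 20 of 24 (median -3.26). Quiescence regulators were higher after CD40L + IL-4 in 18 of 24 (median 1.07), MHC class II presentation genes in 13 of 16 (median 1.15) and homing genes in 13 of 18. Il4ra stood higher after CD40L + IL-4 than after LPS + IL-4, where it was at 1010 and 934 CPM (log2 difference 0.79, SE 0.1903, edgeR adjusted p = 0.00588), and Socs2 likewise (log2 difference 2.73, SE 0.179, edgeR adjusted p = 2.66e-06).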

How the data were processed

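RNA-seq counts of 4 control libraries were compared, 2 per stage, with 2 LPS + IL-4 control libraries in a second fit of 6. The authors aligned the reads with Subread to GRCm38 and counted uniquely mapped reads on RefSeq exons with featureCounts, and the deposited values are raw counts per gene. The deposited log2 RPKM values, quantile normalized by the authors, served only as an alternative filter. The 2 tables were joined on the Entrez ID (27179 genes). The 517 entries without a symbol held at most 0.312% of the counts of a library. Groups came from the sample titles and the paper, since 1 extraction protocol that speaks of the CD40L culture is attached to every sample.

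The test was edgeR 4.0.16's quasi-likelihood test in R 4.3.3 with TMM normalization, after a minimum of 0.5 CPM in 2 libraries. Genes were called at a Benjamini-Hochberg adjusted p under 0.15 (over all genes tested) with a fold over 1.5, the thresholds of the study's methods. No RPKM threshold was applied, as 223 tested genes have no RPKM. SEs were taken from the size of the log2 fold change and the square root of F. The labels do not say whether the replicates came from separate mice (the paper calls them biological), and p-values measure the spread between these libraries. For 1 gene, the smallest exact permutation p that 2 against 2 allows (two-sided) is 0.333. A gene with no count in a group was compared with 3 counts over the group, and ratios with 1 to 3 counts carry exact 95% intervals. Intervals and floors cover counting error only. Lists are described by counts and medians, with no test.

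The genes named were 14 fixed genes, the 10 largest rises and 10 largest falls with a mean of at least 20 CPM in the higher group and no overlap, the 5 genes with most counts per stage, and up to 2 rises and 2 falls per list. Some genes that the rule names are not reported here. Other list members named in the text were chosen after their values were seen. The comparison, the lists and the rule were chosen with earlier results of these data known. The lists of SOCS, JAK and STAT, mitochondrial mRNA, cytokine and cytokine-programme genes and the correction for transcript length were added after the values were seen. Deviations of same-numbered libraries from their group means correlated at -0.0625, so replicate numbers were not taken as pairs. The edgeR test was tested on simulated data first. Far fewer genes changed in the simulation than were called here, with rises and falls equally likely. It therefore did not check the test or the normalization at the share called here. Alternatives used DESeq2 1.42.0 and limma 3.58.1 (voom), other normalizations and filters, more libraries, a replicate block, and each library left out. Promoter sequences were RefSeq's (GRCm38.p6), matched on the gene ID for 76.0% of the tested genes, too few for a comparison of the lists with all tested genes. Their shares are given beside those of all promoters only as a description. Positions follow GRCm38, and transcript lengths GENCODE vM21 (91.1% of tested genes).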

Additional observations from a re-analysis of the deposited data

How the results depend on the processing

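The 6050 calls became 5519 with DESeq2, 6102 with voom and quantile normalization, 6200 with no filter, 5846 with filterByExpr, 4736 (2468 higher, 2268 lower) among genes with a mean deposited log2 RPKM above 0, 6053 to 6085 with other normalizations, 6510 in a fit of 16 libraries, 6675 in a fit of 24 and 5340 at an adjusted p under 0.05. A fold over 2 left 3880, 1742 of them lower. Leaving out a library gave 4612 to 6046 calls, 2358 to 3258 higher and 2254 to 2788 lower, the lowest count without CD40L + IL-4 replicate 1. The lone library of a stage was then assumed to vary like the others. Between CD40L + IL-4 and LPS + IL-4 the 5289 calls ranged from 4003 to 5640. With the replicate number as a block 6008 genes were called, 5928 of them among the 6050. The numbers were not shown to pair the libraries. Of 171 named genes, 136 were tested in each of 16 refits and 114 of those kept call and direction in each, while 35 did not reach the minimum level in at least 1. The reversed values were Cd74 (0.31 under voom), Rn45s (2.61 without naive replicate 1, and down to -1.83 without another), the SOCS family median (-0.067 without CD40L + IL-4 replicate 1, where fewer members were tested, up to 0.82 without another) and, between the cultures, Hspa1a (-0.73 without CD40L + IL-4 replicate 1, up to 3.32 without another) and ND4L (-2.80 without CD40L + IL-4 replicate 2, up to 1.14 without another). The cause was not tested. With 9598674 to 15118541 counts, a gene under 0.5 CPM in 3 libraries could not be compared. In every list, a gene that reached the minimum only in the libraries of 1 stage had its direction set by that filter.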

Other observations

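Factors known for cytokine programmes of T and NK cells moved in both directions, 4 of 9 rising and 5 falling. Ahr, the aryl hydrocarbon receptor, stood at 66.1 and 49.5 CPM after culture and 6.54 and 4.69 CPM in naive cells (log2 fold change 3.36, SE 0.258, edgeR adjusted p = 4.23e-06). Tbx21, which encodes T-bet, stood at 0.412 and 0.5996 CPM against 8.05 and 9.38 CPM (log2 fold change -4.10, SE 0.428, edgeR adjusted p = 3.51e-05). Eomes, which is also on the NK cell marker list, fell by 3.21 on the log2 scale. Of 16 cytokine and chemokine genes 3 rose and 6 fell. The 3 became 1 when either cultured library was left out, where fewer members were tested, and 5 without naive replicate 2. Of 24 lysosomal genes and cathepsins 2 rose (1 without naive replicate 2) and 6 fell, among them Ctsl (-3.56), Ctso (-1.87) and Ctss (-1.59).

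Of the markers of marginal zone and B1 B cells, Bhlhe41 (3.24), Zbtb32 (1.96) and Myof (1.53) rose and Cd1d1 (-2.25), Dtx1 (-1.43) and Plac8 (-1.26) fell. Zbtb32 lost its call without CD40L + IL-4 replicate 2. Nt5e, which encodes CD73, had 1 count after culture and 19 in naive cells (ratio of summed CPM 15.2, exact 95% counting interval 2.41 to 630). The 6 plasma cell markers tested summed to 1359 and 1669 CPM after culture and 674 and 601 CPM in naive cells. Of the 6, 3 rose and 2 (Sdc1 and Igj) fell. Most of the rise in the sum was Xbp1, with 9203 and 9115 counts after culture and 2714 and 2828 in naive cells. Whether the share of plasma cells changed was not tested. Of 4 macrophage markers tested, Emr1 (2.53) rose and Lyz2 fell, with 0 counts after culture and 35 and 9 in naive cells (at least 11.7-fold lower). Lyz2 did not reach the minimum level when either naive library was left out, or with filterByExpr.

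Xist, transcribed from the inactive X, stood at 186 and 50.9 CPM after culture and 75.5 and 142 CPM in naive cells, and the Y-linked Ddx3y at 14.5 and 28.9 CPM against 55.0 and 34.9 CPM, so both were counted in each of the 4 libraries.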
